A study of Mus musculus with 32 samples.

Results

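The response of the BALB/c mesentery to pristane at day 18 is described here as the difference between 2 groups of arrays. The treated group is 4 arrays of mesentery from BALB/c mice that received 0.5 ml of pristane (TMPD, a branched hydrocarbon oil) into the peritoneal cavity 18 days earlier. The control group is 3 arrays of mesentery from untreated BALB/c mice. The arrays were chosen by their strain, agent and time labels and by their shared title code, bmsnmix, and make up 7 of the 32 arrays of the series. A further control array of that code, control replicate 2, was left out because it carried pancreatic RNA, so the controls are replicates 1, 3 and 4. The other arrays hold mesentery of DBA and F1 mice and of BALB/c mice at day 3, with untreated controls of their own. From these, BALB/c mice at day 3 after the same dose (3 arrays, with 3 controls) and DBA mice at day 18 (3 arrays, with 3 controls) are used for comparison. No genetic change or further agent is named for any of these groups, and the labels give neither age nor sex nor the number of animals behind an array. Nothing in the labels states that each array had its own mouse, so p-values here reflect array-to-array spread alone, and that spread may be technical.

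The mesentery is the peritoneal fold that suspends the gut, made of fat, vessels, lymphatics, a mesothelial surface and small lymphoid aggregates. Pristane is degraded poorly, and the oil is walled off there by granulomas of macrophages and neutrophils. Interleukin-6 from such granulomas is a growth factor for the plasma cell tumours that BALB/c mice later develop in this tissue, and pristane is also known as an inducer of type I interferon in mice.

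Each value is a linear-scale signal, and a gene is represented by its brightest probe set. Values per array are given in the order of replicates 1 to 4 for day 18 and 1, 3 and 4 for controls, and changes are day 18 minus control on the scale log2(signal + 24.7). Across probe sets, log2 values of day 18 arrays correlated with each other at r of 0.977 to 0.983, control arrays at 0.976 to 0.98, and arrays of different groups at 0.936 to 0.959. The mean log2 level of 18 pancreatic acinar markers was 6.34, 11.80, 10.72 and 13.51 on the day 18 arrays, against 6.62, 9.77 and 10.10 on the control arrays, and 16.76 on the array left out. Xist, the transcript of the inactive X chromosome, was high on day 18 replicates 1 and 2 and control 1 (12274 to 13673.5) and low on the other 4 arrays (43.9 to 120.1). The Y-linked gene Kdm5d went the other way, at 1.8 to 13.2 on the arrays high in Xist and 420.7 to 569 on those low in it. By these genes both groups held female and male tissue. The ratio of 3' to 5' beta-actin signal, a measure of RNA integrity, was 1.18 ± 0.0464 on day 18 arrays (SD, n = 4) and 1.31 ± 0.0211 on control arrays (SD, n = 3). Fat genes such as Fabp4 and Adipoq, and mesothelial and smooth muscle genes, were bright on all 7 arrays. Acinar RNA was low on day 18 replicate 1 and control 1 and present on the other 5 arrays, and intestinal epithelial genes were highest on day 18 replicates 2 and 3.

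Large numbers of genes differed between day 18 and control in both directions. Of 12947 genes tested, 6277 differed (48.5%): 2984 rose (23.0%) and 3293 fell (25.4%) at an adjusted p under 0.05, the meaning of both words throughout, and 1134 of the increases (8.76% of genes) and 674 of the decreases (5.21%) were at least 2-fold. The median change over all genes was -0.02. Every day 18 array lay above every control for 3088 genes (23.9%) and below every control for 3328 (25.7%). These shares are the background against which the counts of each gene list are to be read. Where a control mean is under 102.4, the filter for dim signals, the size of an increase depends on the offset of 24.7 and understates the change, as it does for 8 of the 12 largest increases.

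The largest increases were in genes of activated macrophages and neutrophils. Acod1, which makes the antimicrobial metabolite itaconate in activated macrophages, had signals of 4836, 3191, 2264 and 2914 on the day 18 arrays, against 7.2, 6.6 and 3.1 on the control arrays, a rise of 6.72 ± 0.33 (SE; adjusted p = 1.62e-13). Cxcl5, a chemokine for neutrophils, stood at 4744, 3790.5, 2419.5 and 3775 on the day 18 arrays, against 35.9, 4.5 and 2.8 on the control arrays, and rose by 6.63 ± 0.45 (adjusted p = 1.19e-11). Arg1, the arginase of activated macrophages, measured 13585, 8919, 11540.2 and 17812 on the day 18 arrays, against 44.3, 155 and 242 on the control arrays, and rose by 6.40 ± 0.54 (adjusted p = 5.45e-10). For all 3 genes every day 18 array lay far above every control. Next in size were Clec4e, a receptor for mycobacterial and damaged-cell lipids (5.82), the chemokine gene Cxcl2 (5.77), Il1rn, the natural antagonist of interleukin-1 (5.75), and the calprotectin genes S100a8 (5.61) and S100a9 (5.48). Chil1, a chitinase-like protein, Ccl3, a chemokine for monocytes, Mmp12, the macrophage elastase, and Gpnmb, a glycoprotein of lipid-loaded macrophages, followed at 5.19 to 5.23.

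The 10 largest decreases with separate groups were smaller than the increases and varied more between the day 18 arrays. Tmem45b had signals of 104, 486, 894 and 223 on the day 18 arrays, against 1812, 2516 and 2869 on the control arrays and fell by 2.77 ± 0.44 (adjusted p = 1.14e-05). Reep6 stood at 280.1, 1507, 2141 and 961 on the day 18 arrays, against 5203, 8381 and 6819.5 on the control arrays and fell by 2.75 ± 0.46 (adjusted p = 1.96e-05). In both, day 18 replicate 1 was lowest and replicate 3 highest. Agt, which encodes angiotensinogen, fell by 2.61, Paqr9 by 2.52, Sntb1 by 2.44, Acacb, the mitochondrial acetyl-CoA carboxylase, by 2.34, Tshr, the thyrotropin receptor gene, by 2.28, and Acaa1b, a peroxisomal thiolase gene, by 2.23. Ankef1 (-2.71) and Smoc1 (-2.28) complete the 10. Replicate 1 had the lowest signal among the day 18 arrays for all 10 genes.

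**Figure D1:**
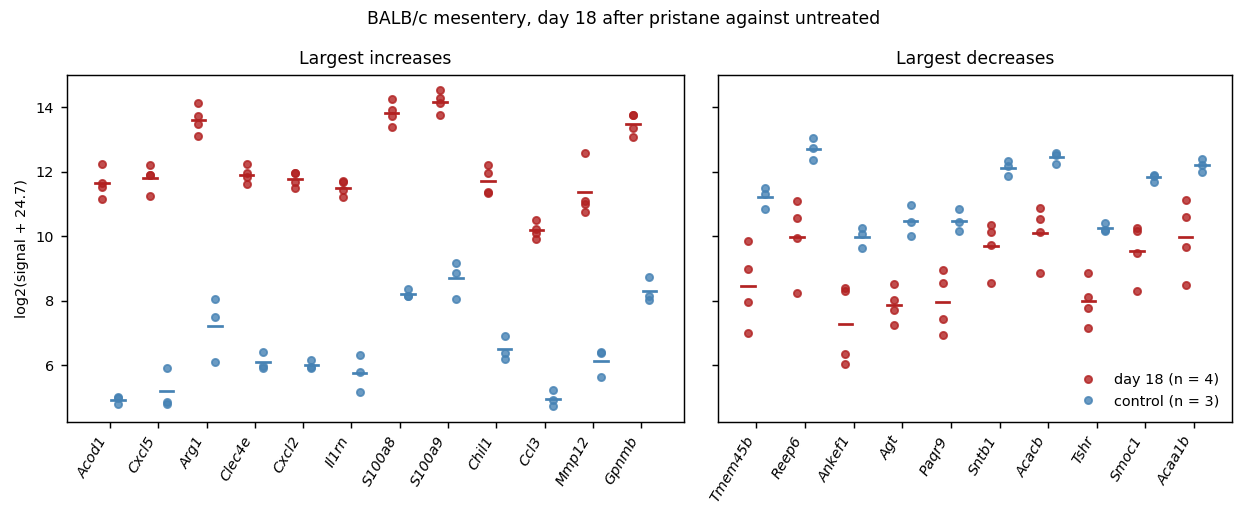
Log2 signals of the 12 largest increases (left panel) and the 10 largest decreases (right panel) among genes with separate groups on each array, with day 18 in red (n = 4) and control in blue (n = 3); short lines are group means. The increases, between 5.19 and 6.72, leave a wide gap between the groups, whereas the day 18 arrays spread widely among the decreases.

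Type I interferon-stimulated genes, which cells switch on when interferon binds its receptor, rose together. Of 30 tested, 29 rose and 0 fell, with a median change of 2.47, and in 28 every day 18 array was above every control. The list's mean log2 level was 11.77, 11.32, 10.83 and 11.31 on the day 18 arrays, against 8.80, 9.22 and 8.81 on the control arrays. Replicate 1 was highest and replicate 3 lowest among the treated arrays, yet replicate 3 was still above all controls.

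Oas3, an oligoadenylate synthetase that activates RNase L on sensing double-stranded RNA, had signals of 2141, 1264, 1068 and 1238 on the day 18 arrays, against 19.1, 15.6 and 13.5 on the control arrays, and rose by 5.11 ± 0.36 (adjusted p = 2.64e-11). Slfn1, a schlafen gene of lymphoid and myeloid cells, rose by 3.89 ± 0.26, with 2789, 2122, 1342 and 2666 on the day 18 arrays, against 113, 151 and 104 on the control arrays. Zbp1, a sensor of Z-form nucleic acid, rose by 3.65 ± 0.25 and measured 3754, 2354, 2035 and 2938 on the day 18 arrays, against 139, 305 and 166 on the control arrays. Oasl1 rose by 3.62 ± 0.28, and the antiviral effectors Ifit1, Rsad2 and Mx1 rose by 3.18, 2.86 and 2.84. Irf7, the factor that amplifies interferon production, measured 8518, 6282, 5159.6 and 7983 on the day 18 arrays, against 471, 1582 and 784 on the control arrays, and rose by 2.99 ± 0.33. Control replicate 3 had the highest of the 3 control signals for Irf7, Ifit1, Rsad2 and Zbp1. Slfn5 had the smallest increase in the list (0.62, with overlapping groups). Ifi27l2a, a small interferon-induced gene, had 15364, 14083, 13979 and 15163 on the day 18 arrays, against 17276, 18471 and 16994 on the control arrays, and was the member not called (-0.26, adjusted p = 0.151). Every day 18 array was below every control for it, at very high signals.

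Promoter sequence is shown for the 3 interferon-stimulated genes with the largest increases that hold an interferon-stimulated response element core in the RefSeq promoter window (GRCm38.p6), from 250 bases before to 50 after the gene's start. The core was searched on both strands as GAAA, any 2 bases and GAAA again. It is present in 12 of the 20 listed genes that have a window, and in 3.99% of all 27025 genes that have one. Capitals mark the core or its reverse complement, which begins 75 bases before the start in Oas3 (chr5:120777610-120777909, minus strand), 104 and 85 bases before in Ifit1 (chr19:34640639-34640938, plus strand), and 20 and 14 bases before in Oas1a (chr5:120907476-120907775, minus strand), where the copies overlap. Oas1a, a further oligoadenylate synthetase, rose by 2.90 ± 0.21. A match describes the letters in the window and is neither a shown binding site nor a cause.
Oas3: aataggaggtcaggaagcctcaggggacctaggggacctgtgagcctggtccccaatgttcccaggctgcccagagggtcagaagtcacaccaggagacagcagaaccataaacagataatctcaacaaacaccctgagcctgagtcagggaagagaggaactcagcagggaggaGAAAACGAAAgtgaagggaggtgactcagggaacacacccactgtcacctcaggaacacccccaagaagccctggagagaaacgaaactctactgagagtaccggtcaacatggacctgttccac
Ifit1: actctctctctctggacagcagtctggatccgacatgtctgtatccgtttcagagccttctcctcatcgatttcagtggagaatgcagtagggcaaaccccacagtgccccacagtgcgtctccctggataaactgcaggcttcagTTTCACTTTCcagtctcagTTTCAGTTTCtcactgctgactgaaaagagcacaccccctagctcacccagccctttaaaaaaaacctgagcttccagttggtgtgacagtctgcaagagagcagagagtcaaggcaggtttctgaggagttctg
Oas1a: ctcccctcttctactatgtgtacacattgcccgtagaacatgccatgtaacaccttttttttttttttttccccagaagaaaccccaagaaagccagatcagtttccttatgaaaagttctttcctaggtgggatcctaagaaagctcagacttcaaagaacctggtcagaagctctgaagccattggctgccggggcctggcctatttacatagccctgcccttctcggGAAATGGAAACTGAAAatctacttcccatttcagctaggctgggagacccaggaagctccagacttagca

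Interferon-gamma response genes moved less. Of 13 tested, 12 rose and 0 fell (median 1.15). Cxcl10, the chemokine of activated T cells, stood at 1271, 962, 509 and 657 on the day 18 arrays, against 74.3, 85.5 and 98.0 on the control arrays, and rose by 2.91 ± 0.36 (adjusted p = 3.75e-07). Irf8, a factor of monocyte and dendritic cell development, rose by 2.05 ± 0.14. The immunity-related GTPase genes Irgm1, Igtp and Irgm2 rose by 1.58, 1.38 and 1.15. Cxcl9, which depends on interferon-gamma more strictly than Cxcl10, had 269, 375, 263 and 202 on the day 18 arrays, against 285, 286 and 257 on the control arrays, and overlapped between the groups (-0.02, adjusted p = 0.978).

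In antigen presentation the accessory genes of class I rose, and its chains were not called at their brightest probe sets. For MHC class I, 7 of 10 genes rose and 0 fell (median 0.76): the peptide transporter Tap1 by 1.53 ± 0.20 and the immunoproteasome subunits Psmb8, Psmb10 and Psmb9 by 1.25, 1.21 and 0.99. H2-D1, H2-K1 and B2m, which form the class I molecule, were not called (adjusted p of 0.986, 0.768 and 0.776), and their signals were very high on all 7 arrays, between 16834 and 24089.7. Their probe sets were not of 1 direction: 4 of 8 tested for H2-D1, 3 of 4 for H2-K1 and 0 of 2 for B2m were higher at day 18. For MHC class II, 6 of 8 rose and 0 fell (median 0.74), and fewer rose with only the arrays high in Xist, which hold a single control. Ctss, the protease that trims the invariant chain, measured 16453, 14246, 15852 and 19968 on the day 18 arrays, against 2465, 3063 and 2736 on the control arrays, and rose by 2.58 ± 0.17. H2-Ab1 rose by 0.87 ± 0.24, H2-Eb1 by 0.61 and the modulators H2-Oa and H2-Ob by 1.40 and 1.09.

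Cytokines of acute inflammation and the chemokines that draw neutrophils through Cxcr2 rose in 16 of 17 genes, with 0 lower (median 2.16). Il1b, the fever cytokine processed by inflammasomes, had 5385, 3679, 4613 and 5274 on the day 18 arrays, against 176, 156 and 132 on the control arrays, and rose by 4.72 ± 0.35 (adjusted p = 5.08e-11). Its antagonist Il1rn stood at 3250.0, 2749.6, 2336 and 3304 on the day 18 arrays, against 30.7, 11.1 and 54.9 on the control arrays. Il1r2, the decoy receptor of interleukin-1, rose by 4.37 ± 0.40, Tnf by 2.38 ± 0.40, Il33, an alarmin of stromal nuclei, by 1.90 ± 0.17, and Il1a by 2.07 ± 0.27. Cxcl2 measured 3964, 2859.6, 3249.9 and 3935 on the day 18 arrays, against 35.0, 36.7 and 46.3 on the control arrays. The remaining neutrophil chemokines were smaller in change: Cxcl1 rose by 2.16 ± 0.28 from a higher control level, and Cxcl3 by 1.69 ± 0.33. Ppbp, the platelet chemokine, overlapped between the groups and was not called (0.52, adjusted p = 0.309).

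Cxcl1, Cxcl2 and Cxcl3 lie in 1 cluster on chromosome 5, and the promoter window of each holds the kappaB site GGGAA followed directly by TTTCC, the sequence bound by NF-kappaB. They are the 3 of 14 genes of the list with a window that hold it, against 0.107% of all genes with a window. The site is in capitals and begins 97 bases before the start of Cxcl2 (chr5:90903649-90903948, plus strand), 71 before that of Cxcl1 (chr5:90890995-90891294, plus strand) and 73 before that of Cxcl3 (chr5:90785851-90786150, plus strand); it was searched on both strands.
Cxcl2: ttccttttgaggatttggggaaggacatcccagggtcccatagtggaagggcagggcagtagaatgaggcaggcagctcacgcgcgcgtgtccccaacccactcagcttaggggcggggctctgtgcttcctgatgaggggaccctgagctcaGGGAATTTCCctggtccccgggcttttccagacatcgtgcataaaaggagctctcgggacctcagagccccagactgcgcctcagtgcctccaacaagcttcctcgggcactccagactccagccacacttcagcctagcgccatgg
Cxcl1: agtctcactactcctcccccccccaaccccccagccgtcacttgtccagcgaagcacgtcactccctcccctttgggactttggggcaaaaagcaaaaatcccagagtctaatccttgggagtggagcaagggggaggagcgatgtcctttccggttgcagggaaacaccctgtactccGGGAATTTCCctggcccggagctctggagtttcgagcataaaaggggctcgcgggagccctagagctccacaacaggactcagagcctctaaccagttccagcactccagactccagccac
Cxcl3: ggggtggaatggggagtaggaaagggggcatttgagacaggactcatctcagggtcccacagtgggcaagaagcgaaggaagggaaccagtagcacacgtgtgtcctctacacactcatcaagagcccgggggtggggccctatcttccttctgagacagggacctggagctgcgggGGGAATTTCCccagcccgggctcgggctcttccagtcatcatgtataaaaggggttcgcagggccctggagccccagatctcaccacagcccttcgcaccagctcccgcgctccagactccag

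CC chemokines, which attract monocytes, lymphocytes and eosinophils, mostly rose. Of 13 tested, 10 rose and 1 fell (median 1.84). Ccl8, a chemokine of tissue macrophages, had 17118, 13655, 12808 and 15783 on the day 18 arrays, against 779, 1284 and 906 on the control arrays, and rose by 3.89 ± 0.22 (adjusted p = 8.87e-13). Ccl2, the main signal for Ccr2-bearing monocytes, measured 7873, 7179, 3662 and 6926 on the day 18 arrays, against 159.6, 622 and 418 on the control arrays, and rose by 4.04 ± 0.49, and Ccl7, which shares its receptor, rose by 3.81 ± 0.45. Ccl12, a further ligand of that receptor, rose (adjusted p = 3.68e-08) with 4751, 3538, 1128 and 2214 on the day 18 arrays, against 67.0, 237 and 150.1 on the control arrays. Day 18 replicate 3 was the lowest of the treated arrays in all 3. Ccl11, or eotaxin, a chemokine for eosinophils, fell by 0.61 with overlapping groups, and Ccl24, a further eosinophil chemokine, was at -0.37 (adjusted p = 0.355).

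All 6 tested genes of the colony-stimulating factors and their receptors rose (median 1.89). Csf3r, the receptor for the neutrophil growth factor G-CSF, had 2565, 1863, 1871 and 2357 on the day 18 arrays, against 189, 133 and 160.4 on the control arrays, and rose by 3.56 ± 0.23. Csf3 itself rose by 2.63 ± 0.36, with 338, 267, 114 and 192 on the day 18 arrays, against 27.4, 11.9 and 4.9 on the control arrays. The receptor chains of GM-CSF, Csf2rb and Csf2ra, rose by 1.92 and 1.87, and Csf1, the macrophage growth factor, by 1.10.

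Neutrophil markers rose in 15 of 16 genes and fell in 0 (median 3.50). S100a8 had 19466, 15377, 10817 and 13619.6 on the day 18 arrays, against 305, 258 and 257 on the control arrays, and S100a9 had 23636, 19955, 13845 and 18145 on the day 18 arrays, against 551, 442 and 243 on the control arrays; together they form calprotectin, an abundant cytosolic protein of neutrophils. Fpr2, a receptor for formylated peptides, rose by 3.82 ± 0.22, and Lcn2, which sequesters bacterial iron chelators, by 4.05 ± 0.40. Granule genes transcribed in neutrophil precursors rose too: Ngp rose by 4.61 ± 0.95 with 5016, 3893, 1321 and 2263 on the day 18 arrays, against 76.7, 59.9 and 149 on the control arrays, Ltf by 3.67 ± 0.83, Camp by 3.44 ± 0.87 and Mpo by 2.36 ± 0.86. Their signals were highest on day 18 replicates 1 and 2 and lowest on replicate 3. Elane, a further granule gene, had 408, 338, 78.5 and 288 on the day 18 arrays, against 71.1, 61.3 and 97.6 on the control arrays, and was not called (adjusted p = 0.171). In whole tissue such as this, more cells of a type and more RNA per cell cannot be told apart, which holds for every cell-type list.

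Of 22 monocyte and macrophage markers 21 rose and 0 fell (median 2.46), and the mean log2 level was 12.29, 11.82, 12.09 and 12.21 on the day 18 arrays, against 9.50, 9.91 and 9.88 on the control arrays. Clec4d, a lectin receptor that pairs with Clec4e, had 6458, 4871, 5263 and 5666 on the day 18 arrays, against 289, 297 and 242 on the control arrays, and rose by 4.21 ± 0.24 (adjusted p = 8.87e-13). Clec4n, which encodes dectin-2, rose by 3.89 ± 0.20, and the scavenger receptor gene Msr1 by 3.71 ± 0.23, with 5727, 3679, 3307 and 4682 on the day 18 arrays, against 278, 348 and 285 on the control arrays. The pan-macrophage genes Cd68, Mpeg1 and Cd14 rose by 3.12, 3.18 and 3.05. Markers of resident macrophages, already bright in controls, rose less: C1qa by 1.25, Adgre1 by 1.54 and Csf1r by 0.62. Marco, the scavenger receptor of marginal zone and alveolar macrophages, was close to the floor in both groups, with 22.7, 5.2, 61.5 and 11.7 on the day 18 arrays, against 4.7, 4.8 and 6.1 on the control arrays (0.62, adjusted p = 0.373).

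Receptors and oxidase subunits by which phagocytes engulf and kill were higher in every gene tested. All 5 genes of the Fc gamma receptor list rose (median 2.85): receptors that bind antibody-coated particles, and Fcer1g, a signalling chain (2.85). Fcgr1, the high-affinity receptor, had 4843, 3336, 2509 and 4276 on the day 18 arrays, against 173, 369.8 and 261 on the control arrays, and rose by 3.70 ± 0.24, while the inhibitory Fcgr2b rose by 2.66 ± 0.20. All 5 subunits of the phagocyte NADPH oxidase rose (median 2.36), led by the cytosolic subunits Ncf4 (2.85) and Ncf1 (2.60) and the membrane subunit Cybb (2.36). Of 4 arginine and itaconate enzymes 3 rose, with Slc7a2, an arginine transporter, at 2.18 ± 0.45 beside Acod1 and Arg1. Odc1, which makes polyamines from ornithine, the product of arginase, had 2983, 2645, 2505 and 2753 on the day 18 arrays, against 2243, 2663 and 2893 on the control arrays, and was not called (0.07, adjusted p = 0.586).

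Genes of lipid-laden macrophages divided into a strongly higher set and a set that was bright in both groups. Of 19 tested, 11 rose and 2 fell (median 0.63). Gpnmb had 13780.5, 8625, 10450.4 and 13867 on the day 18 arrays, against 404, 234 and 257 on the control arrays, and rose by 5.19 ± 0.36 (adjusted p = 1.85e-11). Mmp12 stood at 2177, 1709, 6108 and 2025 on the day 18 arrays, against 25.1, 59.3 and 58.5 on the control arrays; replicate 3 held the highest signal. Atp6v0d2, a subunit of the lysosomal proton pump found in macrophages and osteoclasts, measured 3366, 1802, 2148 and 3176 on the day 18 arrays, against 56.8, 45.9 and 68.8 on the control arrays, and rose by 4.98 ± 0.52. Trem2, a lipid receptor, rose by 4.34 ± 0.38 with 4266, 2408, 3857 and 4432 on the day 18 arrays, against 169.5, 150.2 and 148 on the control arrays, and Itgax by 3.36 ± 0.38. Cholesterol handling genes were uneven: the exporter Abcg1 rose by 2.14 and the acid lipase Lipa by 1.51, while Abca1, Apoe and Plin2 were at 0.12, 0.17 and -0.03 and not called. Cd36, a fatty acid transporter that adipocytes also express, fell by 0.99, and Acp5, the tartrate-resistant acid phosphatase gene, fell by 1.17.

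Of 16 lysosomal genes 14 rose and 0 fell (median 0.77). Gla, the alpha-galactosidase gene, had 1803, 1067, 1024 and 1399 on the day 18 arrays, against 232, 208 and 215 on the control arrays, and rose by 2.44 ± 0.20 (adjusted p = 4.84e-10). The cathepsins Ctsh and Ctsz rose by 1.52 and 1.17, and the proton pump subunits Atp6v1c1, Atp6v1b2 and Atp6v1a by 1.18, 0.93 and 0.73. Lamp1 and Npc2 were at 0.23 and 0.11 and not called. Many lysosomal promoters hold an E-box that factors of the MITF and TFEB family bind, written TCACGTG and searched on both strands. It is present in 6 of the 13 listed genes with a window, and in 4.29% of all genes with a window. It is shown in capitals for the 3 of these with the largest increases, Gla (chrX:134600956-134601255, minus strand), Glb1 (chr9:114400828-114401127, plus strand, 0.81) and Atp6v1a (chr16:44139210-44139509, minus strand). Where 2 matches on opposite strands are 1 base apart they overlap and form 1 run.
Gla: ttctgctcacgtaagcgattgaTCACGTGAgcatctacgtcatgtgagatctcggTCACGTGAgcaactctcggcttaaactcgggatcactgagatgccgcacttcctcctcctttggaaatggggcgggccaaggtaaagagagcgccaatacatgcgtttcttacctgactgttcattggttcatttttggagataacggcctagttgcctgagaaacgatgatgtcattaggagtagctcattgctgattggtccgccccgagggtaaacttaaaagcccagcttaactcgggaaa
Glb1: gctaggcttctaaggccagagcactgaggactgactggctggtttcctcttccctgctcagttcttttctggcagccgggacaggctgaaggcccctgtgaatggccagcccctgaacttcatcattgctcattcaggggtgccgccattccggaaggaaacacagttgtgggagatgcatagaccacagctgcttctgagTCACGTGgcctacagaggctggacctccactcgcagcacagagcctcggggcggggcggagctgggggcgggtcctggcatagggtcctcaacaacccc
Atp6v1a: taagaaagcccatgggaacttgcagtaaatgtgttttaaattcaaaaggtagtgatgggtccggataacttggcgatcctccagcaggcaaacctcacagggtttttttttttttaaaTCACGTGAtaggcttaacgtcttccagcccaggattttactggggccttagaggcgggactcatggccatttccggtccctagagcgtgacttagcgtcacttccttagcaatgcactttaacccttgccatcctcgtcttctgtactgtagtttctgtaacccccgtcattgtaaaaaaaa

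Genes linked to resident and alternatively activated macrophages went both ways. Of 17 tested, 8 rose and 2 fell (median 0.57). Besides Arg1, the chitinase-like gene Chil3 rose by 4.01 ± 0.40, with 824, 310.4, 291 and 603 on the day 18 arrays, against 7.6, 4.4 and 4.5 on the control arrays. Folr2, Mrc1 and F13a1, which mark perivascular and tissue-resident macrophages, rose by 1.40, 1.27 and 1.14. Retnla, an interleukin-4 target gene, had 1567, 5748, 5065 and 2416 on the day 18 arrays, against 8195, 9136 and 12341 on the control arrays, and fell by 1.58 ± 0.41. Mgl2, a galactose lectin gene of interleukin-4-stimulated macrophages, measured 223, 405, 414 and 288 on the day 18 arrays, against 791, 909 and 955 on the control arrays, and fell by 1.38 ± 0.22 (adjusted p = 9.38e-06). Cd163, a haemoglobin scavenger, Timd4, a receptor for dying cells, and Gata6, the factor of peritoneal macrophages, were at 0.17, 0.44 and 0.27 and not called.

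Of 15 complement and acute-phase genes 12 rose and 1 fell (median 1.69). Saa3, the serum amyloid made by macrophages and fat, had 17267, 15440.5, 20105 and 21741 on the day 18 arrays, against 1949, 1156 and 1569 on the control arrays, and rose by 3.58 ± 0.27. C3ar1 and C5ar1, the receptors for the complement fragments C3a and C5a, rose by 3.31 and 2.32, and factor B, encoded by Cfb, by 2.57. Orm1, an acute-phase glycoprotein that fat also makes, went the other way with 1250.2, 4301, 3972 and 2295 on the day 18 arrays, against 7194, 11051 and 7866 on the control arrays, and fell by 1.68 ± 0.38. Its lowest signal was on replicate 1, as for the fat genes.

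The interleukin-6 axis rose at the cytokine more than at its receptors. Of 7 tested genes 5 rose and 0 fell (median 0.75). Il6 had 782, 747, 583 and 1059 on the day 18 arrays, against 3.3 to 21.7 on the control arrays, and rose by 4.49 ± 0.37 (adjusted p = 3.82e-10). Socs3, a feedback inhibitor that STAT3 induces, measured 3318, 2906, 2316 and 2426 on the day 18 arrays, against 318, 272 and 326 on the control arrays, and rose by 3.06 ± 0.29. Osm rose by 1.30 ± 0.26, Stat3 by 0.75 ± 0.10, and Il6st, the shared signalling receptor, by 0.28 ± 0.08. Il6ra was at 0.42 (adjusted p = 0.197) and Jak1 at 0.05 (adjusted p = 0.669), and neither was called.

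Prostaglandin and leukotriene genes split at their terminal enzymes: 9 of 13 rose and 2 fell (median 0.85). Hpgds, which makes prostaglandin D2, rose by 2.46 ± 0.23 with 570.0, 444, 411 and 636 on the day 18 arrays, against 101, 87.0 and 40.5 on the control arrays. Tbxas1, the thromboxane synthase, rose by 2.10 ± 0.25, Alox5ap, which presents arachidonate to 5-lipoxygenase, by 2.01 ± 0.16, and Ptgs2, the inducible cyclooxygenase, by 1.56 ± 0.36. Ptges, the inducible prostaglandin E2 synthase, had 957, 1186, 1123 and 1159.5 on the day 18 arrays, against 2717, 2724 and 2105 on the control arrays, and fell by 1.16 ± 0.14 (adjusted p = 3.74e-07). Alox15 fell by 1.45 ± 0.52, with the lowest signals on replicates 1 and 4.

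Plasma cell genes rose in 14 of 17 tested and fell in 0 (median 1.59). Igha, the constant region of IgA, had 19592, 16727, 18836 and 21715 on the day 18 arrays, against 8041, 1298 and 1883 on the control arrays, and rose by 2.81 ± 0.49 (adjusted p = 3.75e-05). Iglv1, a lambda light chain gene, measured 6163, 4940.2, 4977 and 6432 on the day 18 arrays, against 654, 492 and 405 on the control arrays, and rose by 3.40 ± 0.37. Mzb1, a chaperone of antibody secretion, rose by 2.41 ± 0.26, and Jchain, which joins IgA and IgM into polymers, by 1.90 ± 0.32. Control replicate 1 was the highest control for Igha, Igk, Ighg3 and Jchain. The surface marker Sdc1 rose by 1.60 ± 0.14 with 1402, 1083, 1679 and 1439.9 on the day 18 arrays, against 422, 454 and 443 on the control arrays, whereas the factors Irf4 (-0.06) and Xbp1 (-0.03) were not called. Immunoglobulin probe sets can bind transcripts of related gene segments, so their single-gene names are uncertain. Fewer plasma cell genes rose with only the arrays high in Xist, which hold a single control.

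B cell markers were uneven: 5 of 15 rose and 1 fell (median 0.43). The members that rose with separate groups were Spib (2.61 ± 0.23), Blnk (2.43 ± 0.18) and Cd22 (1.81 ± 0.24), of which Spib and Blnk are also used by plasmacytoid or other myeloid cells. Cd22, an inhibitory receptor of B cells, had 1874, 1119, 2089.8 and 1649 on the day 18 arrays, against 634, 327 and 433 on the control arrays (adjusted p = 8.98e-07). Cd79a and Fcmr rose by 0.80 and 0.89 with overlapping groups, and Ms4a1, which encodes CD20, was at 0.24 and not called. Ebf1 had 244, 389, 416 and 293 on the day 18 arrays, against 927, 1091 and 988 on the control arrays, and fell by 1.54 ± 0.19; it is expressed by adipocytes and stromal cells as well as B cells. The count depended on the arrays: 3 members rose without control replicate 3, 3 without day 18 replicates 2 and 3, and 8 with only the arrays low in Xist. Fewer than 5 rose with only the arrays high in Xist, which hold a single control. The list's mean level was 8.73, 8.78, 9.26 and 8.67 on the day 18 arrays, against 8.68, 7.74 and 8.24 on the control arrays, so control replicate 1 lay within the treated range.

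**Figure D2:**
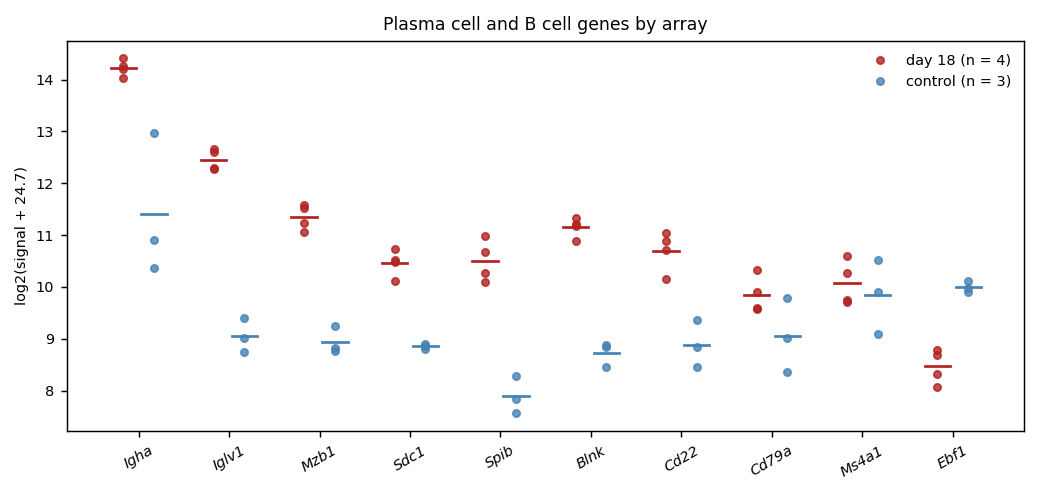
Log2 signals of plasma cell genes (Igha, Iglv1, Mzb1 and Sdc1) and B cell genes (the other 6) on each array, day 18 in red (n = 4) and control in blue (n = 3), with group means as short lines. The plasma cell genes, Spib, Blnk and Cd22 are separated between groups, Cd79a and Ms4a1 overlap, and Ebf1 is lower at day 18.

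Lymphoid-organizing genes and survival factors of B cells rose in part. Of 8 lymphoid-organizing genes 5 rose and 0 fell (median 0.79), and fewer rose with only the arrays high in Xist, which hold a single control. Ltb, which encodes lymphotoxin beta, had 3004, 2271, 2549 and 2604 on the day 18 arrays, against 676, 549 and 471 on the control arrays, and rose by 2.17 ± 0.21. Cxcl13, the chemokine of B cell follicles, measured 5344, 5124, 7487 and 7304 on the day 18 arrays, against 3488, 1443 and 1526 on the control arrays, and rose by 1.64 ± 0.35; control replicate 1 was above the other controls. Ccr7, the homing receptor for lymph nodes, rose by 1.46 ± 0.30, and Tnfsf13b, which encodes BAFF, by 0.59 ± 0.13. Among the 4 BAFF and APRIL genes tested, Tnfrsf13b, the receptor TACI, rose by 1.60 ± 0.16, whereas Tnfrsf17 and Tnfrsf13c were at 0.46 and 0.35 and not called.

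Of 20 T and NK cell markers 16 rose and 0 fell (median 1.23). Il7r had 2834, 2041, 1984 and 2898 on the day 18 arrays, against 342, 248 and 271 on the control arrays, and rose by 2.97 ± 0.25 (adjusted p = 5.4e-10). Cd4 measured 176, 149.6, 179 and 169.7 on the day 18 arrays, against 8.7, 7.4 and 14.2 on the control arrays, and rose by 2.48 ± 0.26. Cd3d and Cd3g, chains of the T cell receptor complex, rose by 1.68 and 1.29, and the NK receptor genes Klrk1 and Klrd1 by 1.86 and 1.28. Cd8a, Prf1 and Zap70 were at 0.24, 0.01 and -0.61 and not called.

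Among granulocytes other than neutrophils, 6 of 9 mast cell markers rose and 1 fell (median 1.24). Within the arrays low in Xist 3 rose, and fewer than 6 within those high in it, which hold a single control. Hdc, the histamine-forming enzyme that neutrophil precursors and macrophages also express, had 1943, 1247, 922 and 1303 on the day 18 arrays, against 14.6, 106 and 101 on the control arrays, and rose by 3.94 ± 0.36. The tryptases Tpsab1 and Tpsb2 rose by 2.48 ± 0.43 and 1.43 ± 0.43, while Mcpt4 (0.48) and the stem cell factor receptor Kit (-0.04) were not called. Only 2 eosinophil markers were tested: Siglecf rose by 1.03 ± 0.25 at low signal, with 84.7, 47.9, 50.8 and 38.7 on the day 18 arrays, against 4.7, 16.2 and 22.1 on the control arrays, and Alox15 fell as given above. Of 7 dendritic cell markers, Itgax, Ccr9 (2.27 ± 0.36) and Flt3 (1.42 ± 0.19) rose and 0 fell.

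Cell cycle and replication genes rose in 24 of 25 tested and fell in 0 (median 1.60). Mki67, the antigen of dividing cells, had 1706, 1068, 943 and 1182 on the day 18 arrays, against 81.9, 372 and 228 on the control arrays, and rose by 2.47 ± 0.41 (adjusted p = 2.03e-05). Bub1b, a mitotic checkpoint kinase, rose by 2.18 ± 0.34, Birc5, which encodes survivin, by 2.16 ± 0.33, and Bub1 by 2.11 ± 0.31. Control replicate 1 was the lowest control for Mki67, Birc5 and Top2a. The replication licensing genes Mcm2 to Mcm7 rose by 0.42 to 1.60. Tpx2 was at -0.17 and not called.

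Genes of fat fell together. Of 16 adipocyte identity genes 14 fell and 0 rose (median -1.42), of 19 lipid synthesis genes 15 fell and 0 rose (median -1.31), and of 9 thermogenic genes 6 fell and 0 rose (median -0.84). Lep, the hormone that reports fat mass, had 90.9, 552, 1522 and 338 on the day 18 arrays, against 1306, 3242 and 2698 on the control arrays, and fell by 2.37 ± 0.62 with overlapping groups. Aqp7, the glycerol channel of fat cells, measured 166, 605, 788 and 389 on the day 18 arrays, against 1665, 2308 and 1874 on the control arrays, and fell by 2.13 ± 0.40 (adjusted p = 9.27e-05). Pparg, the master factor of fat cell identity, stood at 599, 1742, 2074 and 1309 on the day 18 arrays, against 2315, 4624 and 4095 on the control arrays, and fell by 1.42 ± 0.33. Replicate 1 was the lowest of the 7 arrays for each of the 3. The lipase Lipe and the lipid droplet protein Cidec fell by 1.68 and 1.57, and Adipoq, the most abundant fat hormone, by 0.58, while Fabp4 (-0.24) and Lpl (-0.52) were not called although every day 18 array was below every control.

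In lipid synthesis, Acacb had 441, 1451, 1872 and 1105 on the day 18 arrays, against 6115, 5831 and 4829.8 on the control arrays, and fell by 2.34 ± 0.37 (adjusted p = 1.01e-05). Pck1, which supplies glycerol for triglycerides in fat cells, fell by 2.21 ± 0.46, Lpin1 by 1.98 ± 0.37 and Mlxipl, the carbohydrate-sensing factor, by 1.82 ± 0.47. Fasn (-0.53), Acly (-0.62), Thrsp (-0.66) and Scd1 (-0.15) were not called. All 4 were very bright, with signals of 8249 to 27217. The mean log2 level of the adipocyte list was 11.06, 12.16, 12.39 and 11.88 on the day 18 arrays, against 13.07, 13.25 and 13.14 on the control arrays. The day 18 arrays thus ran from replicate 1, the lowest, to replicate 3, and the controls were close to each other. With only the arrays low in Xist, 9 of 19 lipid synthesis genes and 2 of 9 thermogenic genes fell. Fewer adipocyte genes fell with only the arrays high in Xist, which hold a single control.

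The nuclear-encoded respiratory chain, which is dense in fat and muscle mitochondria, fell in 18 of 18 genes (median -0.60). Ndufs1, a subunit of complex I, had 2043, 2751, 2528 and 2586 on the day 18 arrays, against 5229, 5079 and 4826 on the control arrays, and fell by 1.03 ± 0.11 (adjusted p = 6.18e-08). Sdha of complex II and Uqcrc2 of complex III fell by 0.81 and 0.76, and Cox5a of complex IV by 0.27. Day 18 replicate 1 was also the lowest array for most of these genes. Among the thermogenic genes, Cox8b had 568, 2374, 1793 and 617 on the day 18 arrays, against 4568, 5444 and 5046 on the control arrays, and fell by 2.15 ± 0.43, and Cidea fell by 1.76 ± 0.57. Ucp1, the uncoupling protein of brown fat, was at the floor in both groups (19.0, 3.0, 4.4 and 17.3 on the day 18 arrays, against 34.9, 7.1 and 33.2 on the control arrays).

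**Figure D3:**
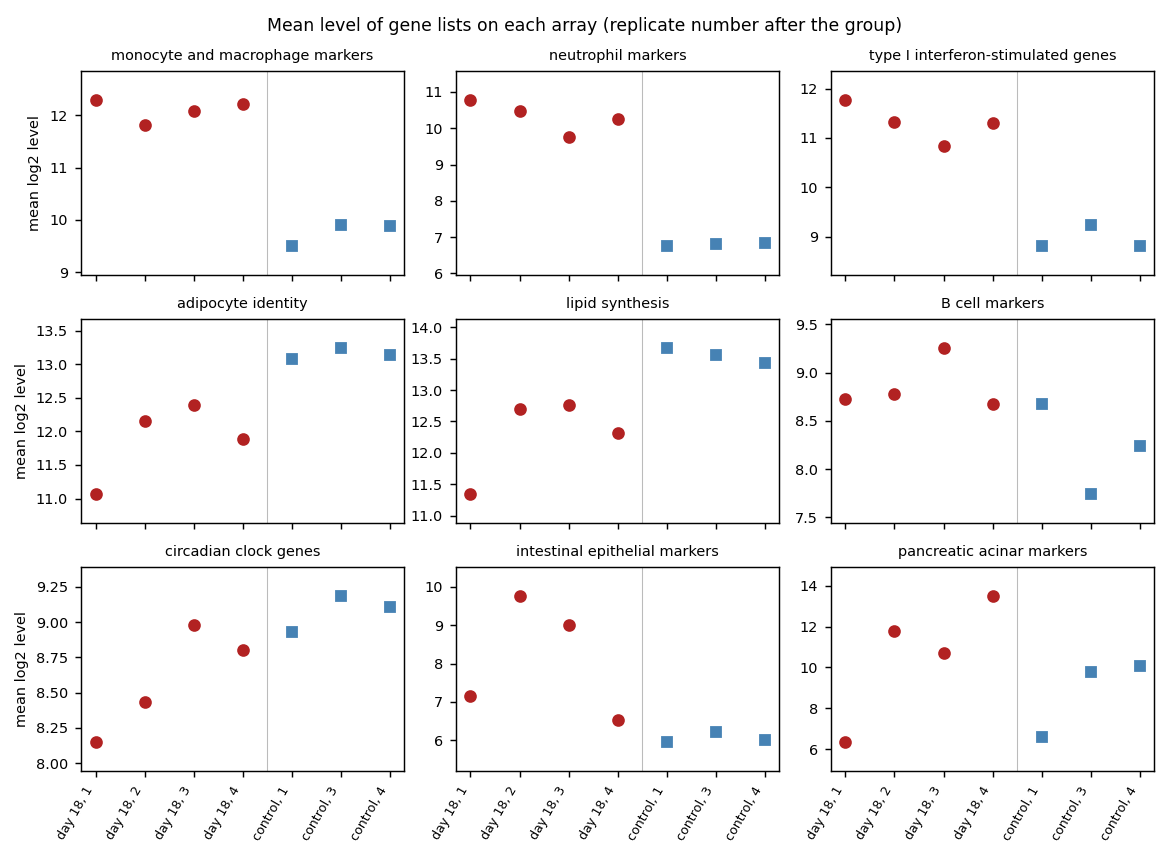
Mean log2 level of 9 gene lists on each of the 7 arrays, with day 18 replicates 1 to 4 as red circles and control replicates 1, 3 and 4 as blue squares; each panel has its own vertical scale. Macrophage, neutrophil and interferon lists separate the groups, adipocyte and lipid lists are lowest on day 18 replicate 1, and intestinal markers are highest on day 18 replicates 2 and 3. Acinar markers range from 6.34 to 13.51, with day 18 replicate 1 the lowest array and day 18 replicates 2 to 4 above every control.

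Most endothelial markers fell, while Vcam1, Icam1 and Flt4 rose. Of 15 endothelial markers 3 rose and 10 fell (median -0.76). Vcam1 and Icam1, by which leukocytes attach, rose by 2.45 ± 0.18 and 2.12 ± 0.16; Vcam1 had 3849, 3106, 2396 and 3454 on the day 18 arrays, against 552, 579 and 543 on the control arrays. Flt4, the receptor of lymphatic vessels, rose by 0.41 ± 0.12. Tek, the angiopoietin receptor, had 463, 712, 738 and 525 on the day 18 arrays, against 1319.9, 1633 and 1284 on the control arrays, and fell by 1.20 ± 0.16 (adjusted p = 8.38e-07). Emcn fell by 1.17 ± 0.15, Flt1 by 1.03 ± 0.12 and Pecam1 by 0.84 ± 0.14.

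Mesothelial markers were modestly higher, with 10 of 15 risen and 1 fallen (median 0.59). Nkain4 rose by 1.00 ± 0.15 with 3956, 2604, 3018 and 4044 on the day 18 arrays, against 1553, 1761 and 1694 on the control arrays, the keratin Krt18 by 0.73, Wt1, the mesothelial transcription factor, by 0.59, and Upk1b by 0.56. Upk3b fell by 0.66 ± 0.14, and Msln was at 0.10 and not called. Fewer mesothelial markers rose with only the arrays high in Xist, which hold a single control. Krt8 (0.98 ± 0.34) and Krt18 are also keratins of gut epithelium and pancreas, and with the left-out control array Krt18 was at -0.12. Of 10 smooth muscle markers 0 rose and 0 fell (median -0.10); in limma no unadjusted p among them was under 0.05.

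Collagens did not rise as a group. Of 15 tested, 1 rose and 7 fell (median -0.23). Col1a1, the chain of type I collagen, had 11334, 9706, 11334 and 12234 on the day 18 arrays, against 5530.1, 10921 and 7312 on the control arrays, and rose by 0.54 ± 0.18 with overlapping groups. Col8a1 and Col15a1 fell by 1.46 ± 0.30 and 0.88 ± 0.20, and the basement membrane chain Col4a2 by 0.53. Control replicate 1 was the lowest control for most collagens; with only the arrays high in Xist, among which it is the single control, 1 of 15 fell. Of 15 further matrix genes 6 rose and 3 fell (median close to 0). Tgfbi rose by 1.22 ± 0.12, the growth factor receptor gene Pdgfra by 1.16 ± 0.17, the crosslinking enzyme Lox by 1.12 ± 0.31 and Tgfb1 by 0.95 ± 0.15, while Postn had 2812, 3709, 3355 and 2944 on the day 18 arrays, against 5258, 6498 and 5924 on the control arrays, and fell by 0.88 ± 0.11.

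Of 14 tested matrix metalloproteinase, related protease and inhibitor genes, 8 rose and 1 fell (median 1.03). Timp1, the inducible inhibitor of metalloproteinases, had 10981, 7816, 8784 and 10694 on the day 18 arrays, against 284, 619 and 813 on the control arrays, and rose by 4.11 ± 0.36 (adjusted p = 1.22e-09). Adam8, a leukocyte sheddase, rose by 3.89 ± 0.29, and Mmp14, a membrane-bound collagenase, by 1.30 ± 0.15. Timp4, the inhibitor made by fat, fell by 2.96 ± 0.68, with 68.8, 160.4, 1519 and 266 on the day 18 arrays, against 636, 4020.0 and 4551 on the control arrays; replicate 3 overlapped control replicate 1. Timp2, Timp3 and Mmp2 were at 0.08, 0.03 and -0.11 and not called.

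**Figure D4:**
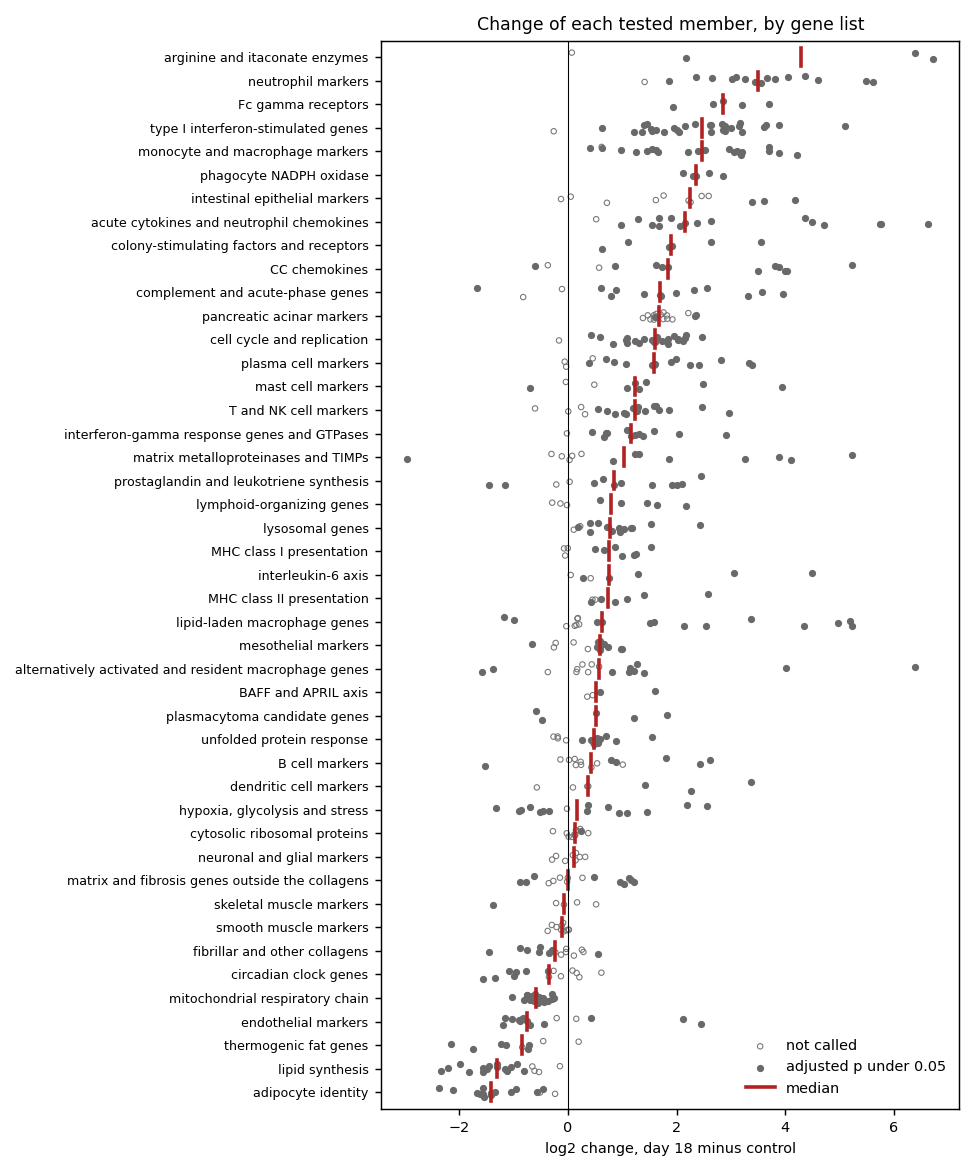
Log2 change (day 18 minus control) of every tested member of the gene lists with at least 4 tested members, ordered by median (red line); filled points passed an adjusted p of 0.05 and open points did not. Arginine and itaconate enzymes (median 4.29) and neutrophil markers (3.50) are at the top and adipocyte identity (-1.42) at the bottom.

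Markers of neighbouring organs were uneven among the day 18 arrays. Reg3b, an antibacterial lectin of gut epithelium and pancreas, had 55.8, 3009.8, 3121 and 1972 on the day 18 arrays, against 32.5, 35.8 and 42.6 on the control arrays, and rose by 4.18 ± 1.08 (adjusted p = 0.00238). Fabp2, the fatty acid binding protein of the gut lining, stood at 218, 4259.9, 1215 and 10.4 on the day 18 arrays, against 21.7, 4.9 and 15.0 on the control arrays, and rose by 3.60 ± 1.39 (adjusted p = 0.0337). Muc2, the mucin of goblet cells, measured 41.0, 1121, 805 and 21.3 on the day 18 arrays, against 53.7, 41.4 and 58.0 on the control arrays, and was not called (adjusted p = 0.169). Fabp2 and Muc2 were high on day 18 replicates 2 and 3, and Reg3b on replicates 2, 3 and 4. In all 3 of 12 intestinal markers rose (Reg3b, Fabp2 and Reg3g; median 2.24), 0 without replicates 2 and 3 and 9 without replicate 4. Over all genes, 2924 rose and 3135 fell without these 2 arrays, and 2911 rose and 3209 fell with the acinar level as a term. The 18 acinar markers had a median of 1.68 with no gene separated between groups, and 3 (Cela1, Gp2 and Cuzd1) rose; 18 did without day 18 replicate 1, whose acinar level was as low as that of control 1. Genes at least 8-fold brighter on the left-out control than on the other BALB/c controls numbered 154, of which 69 rose and 8 fell here; without them 2915 genes rose and 3285 fell.

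Markers of further tissues were mostly not called. Of 5 skeletal muscle markers Acta1 fell by 1.37 ± 0.36, and the median was -0.07. Of 8 neuronal and glial markers (median 0.11), 2 erythroid markers and 1 islet marker 0 were called by limma, and 0 had an unadjusted p under 0.05.

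Stress genes showed no shared direction. Of 16 hypoxia, glycolysis and stress genes 8 rose and 7 fell (median 0.16). Hmox1, which degrades haem, had 2585, 1749, 1804 and 2382 on the day 18 arrays, against 235, 490.2 and 329.7 on the control arrays, and rose by 2.55 ± 0.25. The metal-binding Mt2 rose by 2.18 ± 0.38, the glucose transporter Slc2a1 by 1.46 ± 0.17 and Hif1a by 1.09 ± 0.12. In contrast Pfkfb3, a glycolytic activator, fell by 1.32 ± 0.22, the vessel growth factor Vegfa by 0.91 ± 0.15 and Bnip3 by 0.87 ± 0.14. Of 15 unfolded protein response genes 11 rose and 0 fell (median 0.47), among them Sdf2l1 (1.55 ± 0.21) and Edem1 (0.89 ± 0.19), with 7 of 15 on the arrays low in Xist. The list's mean log2 level was 12.80 on the left-out control with pancreatic RNA, against 11.03 to 11.13 on the controls used. Sdf2l1, Edem1 and Mt2 were brighter there than on the other BALB/c controls, by 3.938, 2.986 and 4.265. Acinar RNA varied among the arrays used, and its share in these changes was not measured. Of 12 ribosomal protein genes, Rpl27 rose by 0.24 ± 0.07 and 0 fell (median 0.13).

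Clock genes fell in 7 of 14 and rose in 0 (median -0.36), with a second split inside the groups. Nr1d1, the repressor REV-ERB alpha, had 289, 584, 1163 and 858 on the day 18 arrays, against 1456, 2278 and 2259 on the control arrays, and fell by 1.57 ± 0.33 (adjusted p = 0.000366). Cry2 fell by 1.08 ± 0.17 and separated the groups. Dbp, a strongly rhythmic output gene, measured 288, 366, 3533 and 1919 on the day 18 arrays, against 895, 3947 and 3944 on the control arrays, and fell by 1.35 ± 0.56 (adjusted p = 0.0475). Its low arrays, day 18 replicates 1 and 2 and control 1, are those high in Xist. Arntl, which peaks in antiphase to Dbp in mice, ran the other way with 623, 588, 340.4 and 350.0 on the day 18 arrays, against 802, 366 and 269 on the control arrays, and was not called (0.08, adjusted p = 0.869). The labels give neither sex nor the hour of collection. Without day 18 replicate 1 or control 3, 3 clock genes fell, and without day 18 replicate 2 or control 4, 4 did.

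Of 5 tested genes named as candidates for plasmacytoma susceptibility, 3 rose and 2 fell. Tnfrsf1b, the second receptor of TNF, had 3179, 2308, 3028 and 3197 on the day 18 arrays, against 924, 709 and 778 on the control arrays, and rose by 1.83 ± 0.13 (adjusted p = 1.68e-11). Mndal, an interferon-inducible gene of the Ifi200 cluster, measured 8348, 6999, 6251 and 6534 on the day 18 arrays, against 3025, 3167 and 2844 on the control arrays, and rose by 1.21 ± 0.27 (adjusted p = 0.000536). Myc, the gene activated by translocation in these tumours, stood at 847, 708, 797 and 929.9 on the day 18 arrays, against 590.2, 558 and 539 on the control arrays, and rose by 0.52 ± 0.14 (adjusted p = 0.00393). In all 3 the groups were separate, though the Myc difference is small. Mtor, a growth kinase, fell by 0.47 ± 0.09, with 1014, 1283, 1369.8 and 1285 on the day 18 arrays, against 1808, 1629 and 1728 on the control arrays. Rb1, the retinoblastoma tumour suppressor, fell by 0.59 ± 0.11, with 923, 1009.9, 1234 and 891 on the day 18 arrays, against 1503, 1718 and 1395 on the control arrays. Cdkn2a did not pass the filter for dim signals and was not tested.

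The day 18 response was set against that of BALB/c mice at day 3 through the difference of the 2 responses, each with its own controls. At day 3, 22.4% of genes rose and 22.0% fell. Of 12947 genes 110 differed (0.850%), 55 with a higher change at day 18 (0.425%) and 55 with a lower one (0.425%). RNA integrity differed between these sets: the 3' to 5' beta-actin ratio was 1.18 ± 0.0464 and 1.31 ± 0.0211 in treated and control arrays of the day 18 set, and 1.88 ± 0.300 and 2.42 ± 0.275 in those of the day 3 set (SD). With that ratio as a term 56 genes differed. Xist was high on all 6 arrays of the day 3 set (16851.7 to 26178.4), whereas the day 18 set held arrays high and low in Xist. The sets also carry different title codes, so time cannot be told apart from these. Gpnmb had the largest positive difference, with changes of 5.19 at day 18 and 1.13 at day 3 (difference 4.05 ± 0.53, adjusted p = 9.08e-05). Syngr1, a vesicle membrane protein gene, followed with 1.67 and -0.70 (2.37 ± 0.30, adjusted p = 9.08e-05), Lonrf3, a ring finger gene, with 2.14 and -0.09 (2.23 ± 0.32, adjusted p = 0.000353), and Ccrl2, a chemerin receptor gene, with 3.21 and 1.28 (1.93 ± 0.34, adjusted p = 0.00355). The macrophage genes Clec4n (3.89 and 2.10) and Ms4a7 (3.16 and 2.09) and the lymphoid genes Cd4 (2.48 and 0.62), Il7r (2.97 and 1.32), Sdc1 (1.60 and 0.69) and Cd22 (1.81 and 0.19) also had higher changes at day 18, with adjusted p of 0.00241, 0.0353, 0.0154, 0.0264, 0.0291 and 0.0221.

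Genes with lower changes at day 18 than at day 3 included Rnase2a and several of the list of alternatively activated and resident macrophages. Rnase2a, a ribonuclease of eosinophils, had signals of 140.0, 246, 249 and 99.6 on the day 18 arrays, against 322, 242 and 502 on the control arrays, a change of -0.89 at day 18 and 3.57 at day 3 (difference -4.46 ± 0.49, adjusted p = 2.69e-05). Mgl2 changed by -1.38 at day 18 and 1.28 at day 3 (-2.66 ± 0.32, adjusted p = 6.24e-05), and its relative Clec10a by 0.15 and 2.12 (-1.96 ± 0.33, adjusted p = 0.00305). Chil3 changed by 4.01 and 6.57 (-2.55 ± 0.59, adjusted p = 0.0315), Cd209d, a lectin gene, by -0.38 and 1.60 (adjusted p = 0.00668), and Cd163 by 0.17 and 1.30 (adjusted p = 0.0109). The Chil3 call ended in 10 of 13 fits that left out 1 array, with adjusted p up to 0.1. In the stroma Col5a1 (-0.13 and 1.32, adjusted p = 0.00271) and Postn (-0.88 and -0.09, adjusted p = 0.0127) had lower changes at day 18. The cell cycle list had a median of 1.60 at day 18 and 2.93 at day 3, and of its 25 genes Ccna2 differed (1.24 and 3.01, adjusted p = 0.0274).

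**Figure D5:**
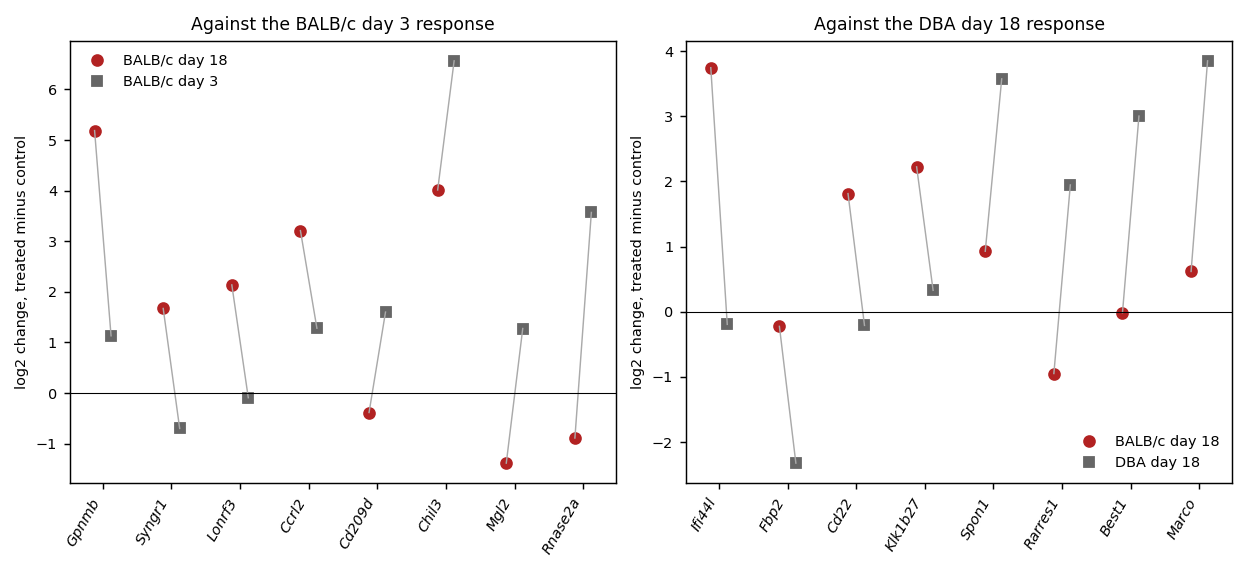
Log2 changes, treated minus control, of the 4 genes with the largest positive and the 4 with the largest negative difference between the BALB/c day 18 response (red) and the BALB/c day 3 response (left panel, grey) or the DBA day 18 response (right panel, grey), leaving out genes at least 8-fold brighter on the left-out control array, such as Reg3b. Gpnmb is at 5.19 at day 18 against 1.13 at day 3, and Ifi44l at 3.75 in BALB/c against -0.19 in DBA.

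In DBA mice at day 18, 26.7% of genes rose and 28.9% fell against their own controls. Between the BALB/c and DBA responses 269 genes differed (2.08%), 116 with a higher change in BALB/c (0.896%) and 153 with a lower one (1.18%). The mean log2 level over all matched acinar markers was 5.90 to 6.41 on the DBA arrays and 6.20 to 12.72 on the BALB/c arrays used. With the acinar level as a term 158 genes differed. The sets also carry different title codes, from which strain cannot be told apart. Ifi44l, an interferon-induced gene, had signals of 3921, 2484, 1988 and 2691 on the day 18 arrays, against 192, 240.5 and 119 on the control arrays in BALB/c, with a change of 3.75 in BALB/c and -0.19 in DBA (difference 3.94 ± 0.43, adjusted p = 6.77e-06). Cd22 changed by 1.81 in BALB/c and -0.21 in DBA (2.02 ± 0.35, adjusted p = 0.0033), Klk1b27, a kallikrein-related gene, by 2.23 and 0.33 (1.90 ± 0.45, adjusted p = 0.0257), and Fbp2, which encodes muscle fructose bisphosphatase, by -0.22 and -2.32 (2.10 ± 0.54, adjusted p = 0.0387). The acute-phase gene Lbp, whose product presents bacterial lipopolysaccharide to CD14, changed by 1.99 and 0.21 (1.77 ± 0.37, adjusted p = 0.0137).

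Lower changes in BALB/c than in DBA were found for genes of several groups. Marco was at 0.62 in BALB/c and 3.85 in DBA (-3.23 ± 0.80, adjusted p = 0.0338), and Best1, an ion channel gene, at -0.01 and 3.00 (adjusted p = 6.77e-06). On the BALB/c day 18 and control arrays their signals were only 4.7 to 61.5 (Marco) and 4.4 to 12.2 (Best1). None of these reached the filter of 102.4, so both genes were tested through other arrays, and their BALB/c changes lie near the floor. Rarres1, a retinoid-responsive gene, was at -0.95 and 1.95 (-2.90 ± 0.25, adjusted p = 2.16e-07), and the matrix gene Spon1 at 0.93 and 3.58 (adjusted p = 0.00304). Of 13 fits that left out 1 array, the call ended in 9 for Fbp2, 6 for Marco and 4 for Klk1b27, and the Spon1 call ended with the mean over its probe sets, of which 3 of 4 were higher in BALB/c at day 18. The 30 tested type I interferon-stimulated genes had a median change of 2.47 in BALB/c and 3.26 in DBA. Of these, 3 differed, each with a smaller change in BALB/c: Stat2 (1.36 and 2.84, adjusted p = 0.00343), Ddx58, which encodes the RNA sensor RIG-I (1.39 and 2.39, adjusted p = 0.00751), and Ifi204 (1.77 and 3.35, adjusted p = 0.0305). Smaller changes in BALB/c were also found for Col1a1 (0.54 and 1.74, adjusted p = 0.0201) and the endoplasmic reticulum chaperone genes Pdia6 (0.55 and 1.43, adjusted p = 0.0161) and Manf (0.53 and 1.52, adjusted p = 0.0105).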

How the data were processed

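Total RNA from mesentery was amplified, labelled and hybridised to Affymetrix mouse arrays. The deposited values are linear signal intensities, 1 per probe set and array, made by the authors with GCOS and MAS5, per the submitters' processing notes, and scaled to a trimmed mean of 500 on every array, as found from the values. No scanner files were used here.

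A gene was represented by its brightest probe set among those with exactly 1 symbol. Genes were tested if 3 or more arrays were above 102.4, the median of the deposited intensities, a filter passed by 12947 of 18194 genes. Values were taken as log2(signal + 24.7), the offset being the lower quartile. One limma model (limma 3.58.1, R 4.3.3) held a term for each group of 31 arrays, with an intensity trend. P-values are two-sided and Benjamini-Hochberg adjusted over all tested genes, with a threshold of 0.05. The number of arrays limits the precision. Replicate numbers follow accession order and pair no samples.

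Of 674 listed symbols, 612 matched and 574 were tested. The members and lists were chosen with earlier results of these data known. Genes were named as the 12 largest increases and 10 largest decreases with separate groups and the 4 largest differences in each direction, leaving out acinar markers and genes at least 8-fold brighter on the left-out control. Named too, without that exclusion, were up to 4 called members of each list, or all where 5 or fewer were called, and the plasmacytoma candidates. Other genes were named for their role after their values were seen. Of 187 genes named by this rule, 75 had several tested probe sets, and in 74 these changed in 1 direction, the exception being Spon1.

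Promoter windows are from RefSeq (GRCm38.p6). Of 14 motifs searched, 3 are shown, chosen after the searches were seen. Alternatives concerned the arrays, controls, offset, filter, normalization, variance model, probe sets and covariates. Those that left out day 18 replicates 2 and 3, or split the BALB/c day 18 and control arrays by Xist, were chosen after seeing the data.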

Additional observations from a re-analysis of the deposited data

Results flagged for a closer look

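Among 187 genes and 48 lists screened, 1 of the 4 day 18 arrays stood far from the other 3 for 6 genes and 3 lists. Chance does so in about 1 in 20 groups of values, which comes to 12 here, more than the 9 found. Replicate 1 was high for the GTPase gene Igtp (6878.2, against 3742.6 to 4028.9 on the other day 18 arrays) and low for Reg3b (55.8, against 1972.2 to 3121.2) and Cry2 (220.7, against 398.5 to 435.7). Replicate 3 was low for Ccl2 (3661.5, against 6925.8 to 7873.1) and high for Madcam1, the mucosal homing ligand of lymphocytes (361.7, against 177.4 to 185.8). Replicate 2 was low for Tnfrsf1b (2307.7, against 3027.7 to 3197.4). Among mean log2 levels of lists, replicate 3 was high for lymphoid-organizing genes (9.509) and low for matrix and fibrosis genes outside the collagens (11.542), and replicate 2 was high for neuronal and glial markers (8.432).

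For other genes the change at day 18 differed from that of another group in the test of the difference itself (limma, adjusted p under 0.05). Against BALB/c day 3 the difference was positive for Gpnmb (4.05), Syngr1 (2.37), Lonrf3 (2.23), Ccrl2 (1.93), Cd4 (1.86), Clec4n (1.79), Il7r (1.65) and Cd22 (1.62). It was negative for Rnase2a (-4.46), Mgl2 (-2.66), Chil3 (-2.55) and Cd209d (-1.99).

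Against DBA day 18 the difference was positive for Reg3b (6.12), Ifi44l (3.94), Fbp2 (2.10), Cd22 (2.02) and Klk1b27 (1.90). It was negative for Marco (-3.23), Best1 (-3.02), Rarres1 (-2.90), Spon1 (-2.65), Col1a1 (-1.19) and Creld2, an endoplasmic reticulum stress gene (-0.89).

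On the control array that was left out, the mean log2 signal of the pancreatic acinar markers was 16.763, above all 7 arrays that were used.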

How the results depend on the processing

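Leaving out 1 array gave 2655 to 2959 genes that rose and 2897 to 3211 that fell, and the other alternatives 1992 to 3389 and 2003 to 3555; the lower end of each came from the arrays high in Xist alone, which are 2 day 18 arrays against 1 control. The differences between responses depended more on the setting. From DBA day 18, 269 genes differed, 106 to 627 without 1 array, 129 with the left-out control, 32 with only the arrays of the comparison, 481 with both sets of BALB/c controls, 451 after quantile normalization, 1282 with array weights, 158 with the acinar level as a term, 104 without day 18 replicates 2 and 3, 126 with the arrays low in Xist and 67 with those high in it. From BALB/c day 3, 110 genes differed, 53 to 160 without 1 array, 47 with the left-out control, 3255 with both sets of controls, 566 with array weights, 56 with the beta-actin ratio as a term and 36 with the arrays high in Xist. With both sets of BALB/c controls as 1 group, the same controls enter the day 18 and day 3 responses and cancel. The 3255 genes thus differed between treated arrays of day 18 and day 3, which carry different title codes, with no control subtracted. That count is not a difference of responses. The causes of the other shifts were not tested, beyond the fewer arrays in some fits. Over 26 settings, 142 of 187 named genes never lost their call, and in 135 of 4825 fits a call was lost. The 142 include Fbp2, Marco, Best1 and Cd209d, which were not called at day 18 and so had no call to lose. In 5 fits the direction turned, all with the left-out control: Krt18 (-0.12), Gp2 (-0.07), Cuzd1 (-0.90), Creld2 (-0.16) and Rpl27 (-0.11). Dim genes limit the depth of comparison, since the offset sets the size of their change. No paired analysis was possible because replicate numbers follow accession order only.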
